A study of Mus musculus with 2 samples.

Results

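The nuclear genes for subunits of the mitochondrial respiratory chain and ATP synthase were compared between mouse CD8 T cells that had been activated with vehicle and with prednisolone, a synthetic glucocorticoid. Members were the mouse RefSeq symbols that begin with Ndufa, Ndufb, Ndufc, Ndufs, Ndufv, Uqcr, Cox4, Cox5, Cox6, Cox7, Cox8 or Atp5, together with Cycs and Cyc1; Ndufaf assembly factors were left out. The rule matched 105 RefSeq symbols, and 82 of them were on the array, out of 23462 genes named there, with 103 probes and 112 spots. Of the other 23 symbols, 19 were pseudogenes, and the 4 protein-coding ones (Cox5b, Ndufb1, Ndufb4b and Ndufb4c) had no probe under an accession that the gene table names.

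Both cultures were started from naive CD8 T cells (CD44 low, CD62L high) of C57BL/6 spleen. They were stimulated for 2 days on immobilized antibody to the T cell receptor beta chain (3 µg/ml), with antibody to CD28 (1 µg/ml) and interleukin-2 (10 ng/ml), and either vehicle or 1 µM prednisolone was present. The cells then spent 3 days on a new plate in interleukin-2, and RNA was taken on day 5; how many mice were used, their age, and whether cells were pooled are not given in the sources used here. There was 1 array for vehicle and 1 for prednisolone, so no difference below has a replicate check, and none was tested. The drug's presence is described for the stimulation only. Other causes of a difference between the cultures cannot be told apart from the drug.

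The respiratory chain sits in the inner mitochondrial membrane. Complex I takes electrons from NADH, complex III passes them from coenzyme Q to cytochrome c, and complex IV passes them from cytochrome c to oxygen; the protons pumped on the way drive ATP synthase, complex V. T cells rely on this machinery together with glycolysis, and both are remodelled when a naive cell is activated. Several complex IV subunits exist as alternative isoforms from separate genes, some typical of striated muscle, testis or lung.

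Levels are log2 of the scanner's processed signal minus that array's 75th percentile, so 0 is the 75th percentile of the array. Differences are prednisolone minus vehicle on the log2 scale, and ± is the scanner software's own error for the difference, which holds no spread between cultures. A gene was counted as higher or lower when it differed by at least 2-fold (1 on the log2 scale). Levels of different genes come from different probes and are not comparable with each other. In bulk RNA, fewer cells of a type and less RNA per cell cannot be told apart.

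On each array 53.5% of non-control spots were well above background. The CD8 T cell markers on the array were measured on both arrays, 9 of 9, with a summed linear level relative to the 75th percentile of 525 for vehicle and 418 for prednisolone and 0 of 9 apart by 2-fold. Their median difference was -0.46, with 8 of 9 below 0, from -0.87 for Cd3g to 0.10 for Cd2, and Cd8a at -0.01 ± 0.14. Of the markers of other cells, 4 of 8 for B cells and 5 of 8 for myeloid cells were well above background on at least 1 array. Cd79b, Itgam and Csf1r were measured on both arrays, while Ms4a1, Lyz2 and Adgre1 were well above background on neither.

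Of the 82 members, 77 were measured on both arrays, 2 were well above background for vehicle only and therefore have a bound, and 3 (Cox7b2, Cox8b and Ndufa4l2) were well above background on neither. Among the 79 with a value or a bound, 1 was at least 2-fold higher with prednisolone (Cycs) and 3 were at least 2-fold lower (Cox7a1, Cox6a2 and Cox8c). Over all 14135 genes with a value or a bound, 6.91% passed 2-fold in the higher direction and 7.94% in the lower. The median difference of the 77 measured members was 0.10, with a range from -2.25 to 1.05, against a median of 0.00 over 12899 measured genes. For 32 of the 77, the difference was within the software's error.

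Of the 79, 75 were within 2-fold between the cultures, and the 4 outside this range were Cycs, Cox7a1, Cox6a2 and Cox8c. Cox7a1, Cox6a2 and Cox8c are tissue isoforms of complex IV, but Cox6a2 and Cox8c have bounds that could only be lower. The complex IV isoforms Cox6b2 (-0.89) and Cox4i2 (-0.21) were within 2-fold. Without the tissue and hypoxia isoforms, the other 74 measured members ran from -0.53 to 1.05 with a median of 0.10 and an SD among genes of 0.29. Above 0 were 55 of these 74; the split depended on the scaling between arrays, with 42 above 0 when no scaling was applied and 66 when the arrays were set equal on their spike-in controls. The members were bright: 64 had a mean level of at least 4, a limit chosen after the values were seen, and all 64 lay within 2-fold. Of the 1213 genes of that brightness, members included, 2.97% passed 2-fold in the higher direction and 2.14% in the lower, and their SD was 0.50 against 0.26 for the 64 members.

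**Figure D1:**
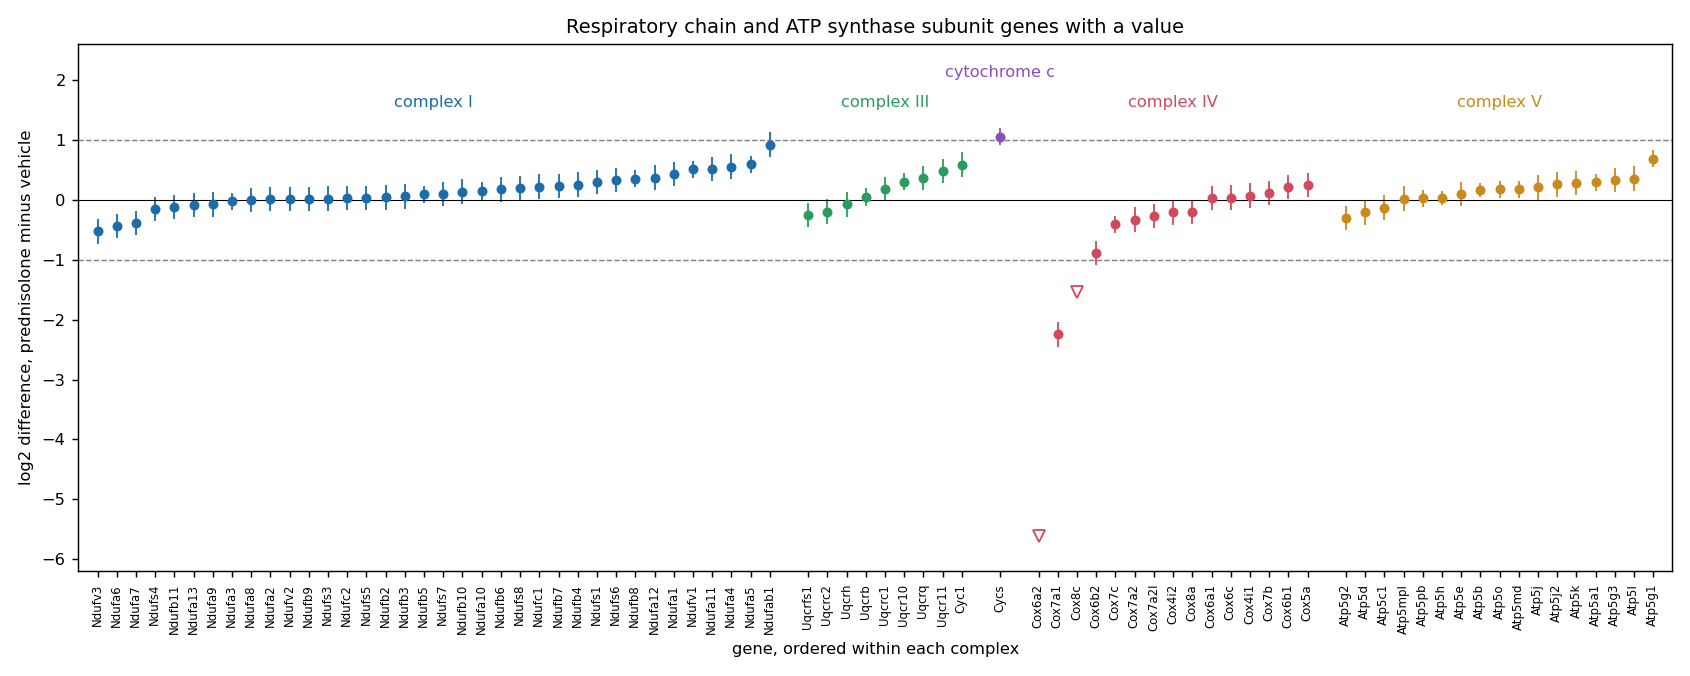
Log2 difference (prednisolone minus vehicle, vertical axis) for 78 members with a value or a bound, ordered within each complex. Filled points are genes measured on both arrays with the scanner software's error as bars, open triangles are upper limits for genes well above background for vehicle only, and dashed lines mark 2-fold; Cycs lies above the upper line, and Cox6a2, Cox7a1 and Cox8c lie below the lower one.

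**Figure D2:**
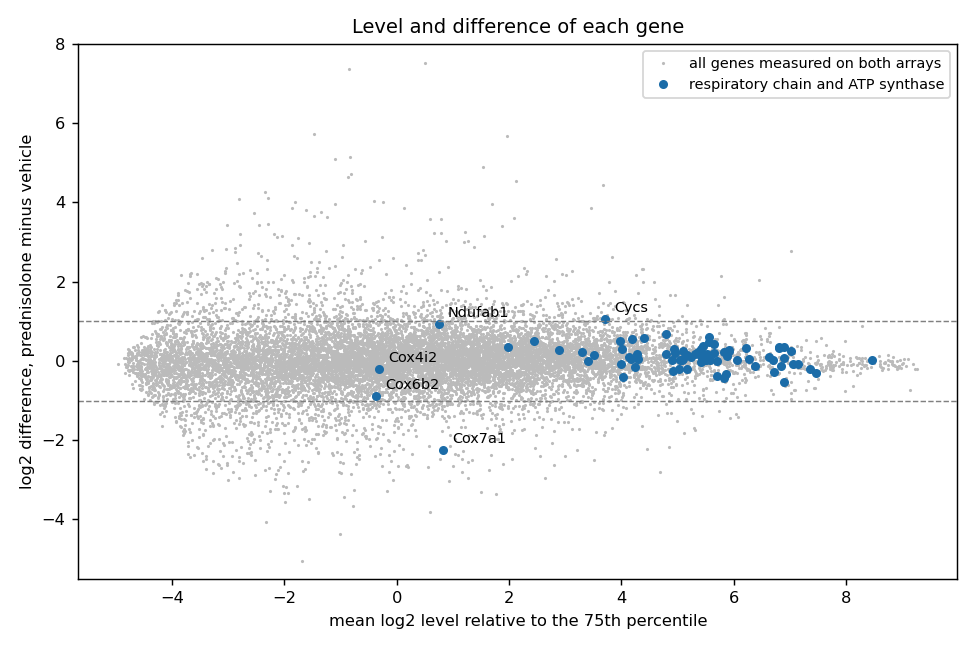
Log2 difference (prednisolone minus vehicle) against mean log2 level relative to the 75th percentile, for the genes measured on both arrays (grey) and the 77 measured members (blue); dashed lines mark 2-fold. Most members sit at mean levels of 4 or more and close to 0, and Cox7a1, Cox6b2, Cox4i2 and Ndufab1 are among the dimmer ones.

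Complex I, the NADH dehydrogenase, had 37 of its 38 members on the array measured, with a median difference of 0.10 and none apart by 2-fold; among all 12899 genes measured on both arrays, 5.84% were past 2-fold in the higher direction and 6.73% in the lower. Above 0 were 28 of 37, a count of 21 with no scaling and 34 with spike-in scaling. The 7 core subunits, which carry the flavin and the iron-sulphur clusters or lie next to them, ran from 0.01 to 0.51, all above 0; 2 of the 7 lay below 0 with no scaling. The 30 accessory subunits, which stabilise the complex, had a median of 0.07, with 21 above 0, or 16 with no scaling and 27 with spike-in scaling.

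Among the core subunits, Ndufv1, which binds the flavin that takes electrons from NADH, showed the highest difference. Its level was 3.73 with vehicle and 4.23 with prednisolone, a difference of 0.51 ± 0.14, and its probes read 0.49 and 0.52. Ndufs1, the largest iron-sulphur subunit, was at 3.86 and 4.16, a difference of 0.30 ± 0.20. Ndufs3, Ndufs7, Ndufs8 and Ndufv2 differed by 0.20 or less.

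The accessory subunit with the highest difference was Ndufab1, the mitochondrial acyl carrier protein, which also serves fatty acid and lipoic acid synthesis. Its level was 0.29 with vehicle and 1.21 with prednisolone, a difference of 0.92 ± 0.20, or 1.89-fold, which passed 2-fold with spike-in scaling (1.16). Ndufa5 went from 5.27 with vehicle to 5.86 with prednisolone, a difference of 0.59 ± 0.14. Ndufa4, now counted as a complex IV subunit in spite of its symbol, was at 3.91 and 4.46, a difference of 0.55 ± 0.20.

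At the low end of complex I were 3 further accessory subunits. Ndufv3 was at 7.16 with vehicle and 6.64 with prednisolone, a difference of -0.53 ± 0.20. Ndufa6 was at 6.04 and 5.60, a difference of -0.43 ± 0.20, and Ndufa7 at 5.90 and 5.51, a difference of -0.38 ± 0.20. All of these exceeded the software's error and stayed well inside 2-fold. Ndufb8 gave no single reading: its bright probe differed by -0.08, and its dim probe, with signals of 67.1 and 112 intensity units, by 0.79.

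Complex II, the succinate dehydrogenase, feeds electrons to coenzyme Q beside complex I and was not covered by the symbol rule. Its 4 subunits had a median difference of 0.11, with none apart by 2-fold: 0.00 ± 0.14 for the flavin subunit Sdha, 0.33 ± 0.14 for the iron-sulphur subunit Sdhb, and 0.02 ± 0.20 and 0.20 ± 0.20 for the membrane anchors Sdhc and Sdhd. When spots with a background flag were also left out, the median was 0.01 over 2 genes, and Sdhb and Sdhd had no value.

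Complex III, which takes electrons from coenzyme Q to cytochrome c, had all 9 members measured, with a median of 0.18 and a range from -0.25 to 0.59. Above 0 were 6 of 9, or 5 with no scaling and 8 with spike-in scaling. Cyc1, the cytochrome c1 subunit that hands electrons to cytochrome c, had the highest difference in this complex, with a level of 4.12 for vehicle and 4.70 for prednisolone, a difference of 0.59 ± 0.20. Its partner on the electron path, the Rieske iron-sulphur protein gene Uqcrfs1, lay on the other side of 0, at 5.04 and 4.79, a difference of -0.25 ± 0.20.

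The 5 small subunits of complex III had a median of 0.30. Uqcr11 was at 5.32 with vehicle and 5.80 with prednisolone (0.48 ± 0.20), and Uqcrq was at 6.61 and 6.98 (0.36 ± 0.20). Uqcrh, the hinge protein, differed by -0.08 ± 0.20, and the core protein gene Uqcrc2 by -0.20 ± 0.20, both within the software's error. No complex III gene reached 2-fold. When spots with a background flag were also left out, the median was 0.04 over 7 genes, and Cyc1 and Uqcr11 had no value.

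Cycs, which encodes somatic cytochrome c, the soluble carrier between complexes III and IV and a trigger of apoptosis once released to the cytosol, was the 1 member at least 2-fold higher with prednisolone. The bright probe read 11212 intensity units with vehicle and 17462 with prednisolone, a difference of 0.69 ± 0.20. The dimmer probe read 1166 and 3013 units, a difference of 1.42 ± 0.20. Both probes were higher with prednisolone, and their mean difference was 1.05 ± 0.14, or 2.08-fold. The 2-fold call ended when the bright probe alone was used (0.69) and when arrays were scaled to the 75th percentile of probes well above background (1.00, just under the limit), and the difference became 1.42 when spots with a background flag were also left out.

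**Figure D3:**
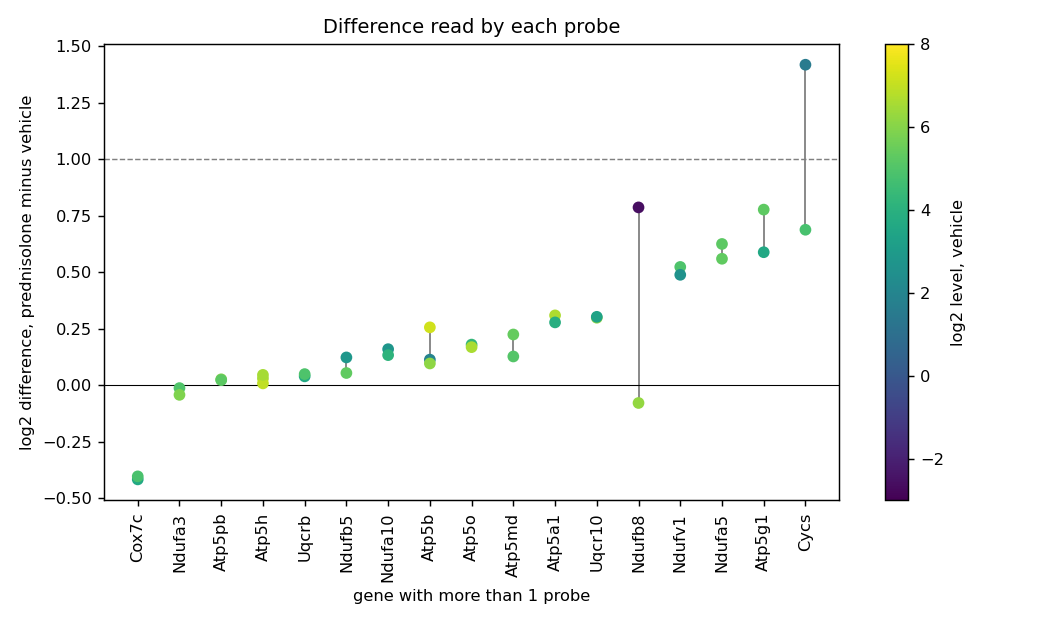
Log2 difference (prednisolone minus vehicle) read by each probe of 17 members with more than 1 probe measured on both arrays, coloured by the probe's log2 level with vehicle; lines join probes of a gene and the dashed line marks 2-fold. The probes of 15 genes lie within 0.5 of each other, and those of Ndufb8 and Cycs do not.

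The region just upstream of Cycs holds motifs that are textbook features of this promoter, a CRE (bound by CREB) and a binding motif of NRF-1, a factor known for respiratory chain genes. The 250 bases before its annotated start, from RefSeq on GRCm38.p6 and read 5′ to 3′ on the gene's strand, are shown because Cycs was the member with the highest difference. Capitals mark TGACGTCA (CRE) and GCATGCGC (NRF-1).
Cycs (chr6:50566570-50566819, minus strand): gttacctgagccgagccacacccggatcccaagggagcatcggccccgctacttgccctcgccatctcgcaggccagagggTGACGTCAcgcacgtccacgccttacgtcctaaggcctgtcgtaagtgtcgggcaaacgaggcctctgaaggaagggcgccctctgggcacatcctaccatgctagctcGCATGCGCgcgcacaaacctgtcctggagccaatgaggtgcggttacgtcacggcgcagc
The NRF-1 match begins 60 bases before the start.

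Complex IV, the cytochrome c oxidase, held most of the families with a tissue or hypoxia isoform. Its 10 common subunits measured on both arrays had a median difference of 0.03 and ran from -0.41 to 0.25, with 6 above 0 and 4 below (4 and 6 with no scaling). The 3 tissue or hypoxia isoforms measured on both arrays (Cox7a1, Cox6b2 and Cox4i2) lay below the common isoform of their family, and 1 of the 3, Cox7a1, was at least 2-fold lower. The software's error ranges of Cox4i2 (-0.21 ± 0.20) and Cox4i1 (0.07 ± 0.20) overlapped. Cox6a2 and Cox8c were well above background with vehicle only, so their bounds could only be lower, and they add no support to a direction. With no filter on dim probes, 7 of 8 isoforms lay below their common partner. That count takes in Cox6a2 and Cox8c, and also Cox7b2, Cox8b and Ndufa4l2, which were well above background on neither array. It therefore adds no support to a direction either.

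Cox7a1 encodes the isoform of subunit VIIa typical of heart and skeletal muscle. Its probe read 1540.3 intensity units with vehicle and 314 with prednisolone, well above background on both arrays. The difference was -2.25 ± 0.20, or 4.75-fold lower with prednisolone, and it lay between -2.30 and -2.01 under the alternatives that could measure it. The widely expressed isoform gene Cox7a2 read 26142 and 20055.5 units, a difference of -0.33 ± 0.20, and its paralogue Cox7a2l differed by -0.27 ± 0.20. With spike-in scaling, these values were -0.09 for Cox7a2 and -0.03 for Cox7a2l.

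Cox6a2 encodes the striated-muscle isoform of subunit VIa. Its probe read 596 intensity units with vehicle and 5.48 with prednisolone, where it was not well above background. Set against the lowest signal well above background on the prednisolone array, it was at least 49.1-fold lower. With another background correction (normexp), the value was -3.22 on the log2 scale in place of -5.62, and it rested on 1 probe. Cox6a1, the common isoform gene, read 139629 and 137743 units, a difference of 0.03 ± 0.20.

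Cox8c, a testis isoform gene of subunit VIII, was dim. It read 35.4 intensity units with vehicle and 2.87 with prednisolone, not well above background, and was at least 2.91-fold lower; with normexp the value was -0.43, inside 2-fold. Its muscle counterpart Cox8b was well above background on neither array, and the common Cox8a differed by -0.21 ± 0.20 (0.03 with spike-in scaling).

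The other alternative isoforms differed by less than 2-fold. Cox6b2, a testis isoform gene, read 419.7 intensity units with vehicle and 219.55 with prednisolone, a difference of -0.89 ± 0.21, while the common Cox6b1 differed by 0.21 ± 0.20. Cox4i2, the lung and hypoxia-responsive isoform gene of the regulatory subunit IV, read 347 and 289 units, a difference of -0.21 ± 0.20 that was 0.03 with spike-in scaling; Cox4i1 differed by 0.07 ± 0.20. Ndufa4l2, the hypoxia-induced relative of Ndufa4, and Cox7b2, a testis relative of Cox7b, were well above background on neither array, and Cox7b differed by 0.11 ± 0.20.

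**Figure D4:**
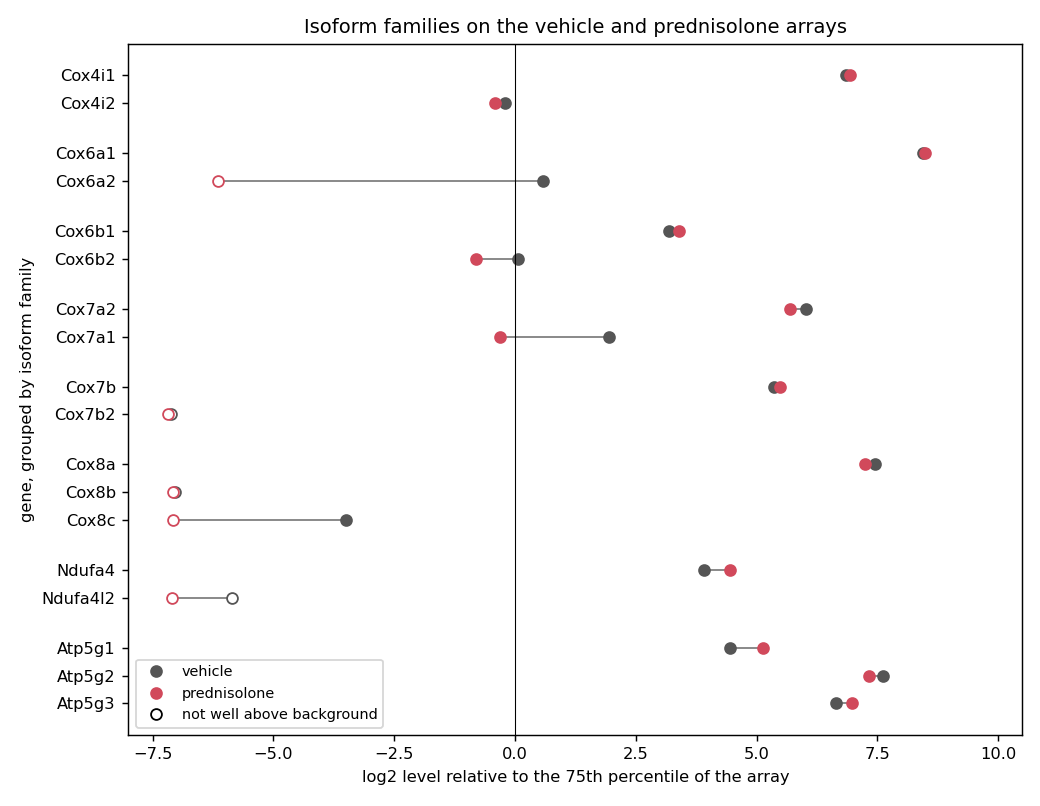
Log2 level relative to the array's 75th percentile with vehicle (grey) and prednisolone (red) for the isoform families; open circles were not well above background, and a line joins the arrays for each gene. Positions are to be read along a gene's own line, since probes of different genes are not comparable: the lines of Cox6a2, Cox7a1 and Cox8c are long, and those of Cox6a1, Cox7a2 and Cox8a are short.

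Of the remaining common subunits of complex IV, Cox7c had the lowest difference, with probes at -0.42 and -0.40 and a mean of -0.41 ± 0.14. Cox5a, which carries the site for a thyroid hormone metabolite, had the highest, at 6.89 with vehicle and 7.14 with prednisolone, a difference of 0.25 ± 0.20. Cox6c differed by 0.04 ± 0.20. All 10 common subunits were within 2-fold.

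Because Cox6a2 and Cox7a1 are known from striated muscle, the markers of that tissue were read as well. Of 16 muscle markers, 10 were well above background on neither array, Mb, Des, Acta1, Myod1 and Myog among them, and the 4 measured on both arrays (Actn2, Myh7, Ryr1 and Tnnt3) were within 2-fold. Ckm and Tnni2 were well above background with vehicle only, at least 1.39-fold and 1.43-fold lower, bounds that do not place them within 2-fold. With no filter on dim probes, Ckm passed 2-fold in the lower direction and Actn3 in the higher. Actn3 was well above background on neither array, at 3.26 intensity units with vehicle and 6.44 with prednisolone. The summed linear level of 6 of the 16 muscle markers relative to the 75th percentile was 1.14 with vehicle and 0.967 with prednisolone. Other marker lists moved more: the summed level was 2.79 and 1.52 for 5 of 8 myeloid markers and 1.09 and 5.94 for 4 of 7 erythroid markers, with differences of 3.97 for Hba-a1, 4.01 for Hba-a2 and 0.87 for Hbb-bt, and of -2.95 ± 0.29 for Epor; Alas2 and Klf1 were well above background on neither array. Among the myeloid markers, Cd68 differed by -2.43, and Itgam by 0.02 ± 0.22. Cd74, well above background with vehicle only, was at least 4.63-fold lower. The summed level was 3.47 and 4.44 for 4 of 8 B cell markers and 7.53 and 5.10 for 4 of 5 CD4 T cell markers. Of the B cell markers, Cd79b was higher (0.66 ± 0.20), while Cd22 differed by -0.41 ± 0.22 and Pax5 by -0.09 ± 0.44. Vpreb3, well above background with vehicle only, was at least 17.4-fold lower. The part of these markers in the isoform values was not tested.

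The stretch upstream of Cox7a1 and that of Cox7a2 are shown because this muscle and common pair was measured on both arrays and differed in size. Each is the 250 bases before the annotated start (RefSeq, GRCm38.p6), 5′ to 3′ on the gene's strand. Capitals mark the E-box match (CANNTG on either strand), the motif of myogenic and other basic helix-loop-helix factors.
Cox7a1 (chr7:30183921-30184170, plus strand): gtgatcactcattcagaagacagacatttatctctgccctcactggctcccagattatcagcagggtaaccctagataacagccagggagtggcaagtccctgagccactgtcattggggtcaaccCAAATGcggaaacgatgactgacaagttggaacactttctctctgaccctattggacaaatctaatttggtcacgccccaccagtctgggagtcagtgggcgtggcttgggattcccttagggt
Cox7a2 (chr9:79759854-79760103, minus strand): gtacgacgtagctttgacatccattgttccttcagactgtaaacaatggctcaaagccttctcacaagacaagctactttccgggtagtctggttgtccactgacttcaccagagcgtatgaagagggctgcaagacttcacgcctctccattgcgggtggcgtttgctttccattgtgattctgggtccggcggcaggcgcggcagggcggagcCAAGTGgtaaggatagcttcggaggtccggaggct
Each stretch held an E-box, as did 66.2% of 32851 RefSeq promoter stretches of that length. GCATGCGC, CCGGAAG and TGACGTCA were found in 0 of the 4 isoform promoters that matched an entry. Over all 32851 stretches the shares were 2.26%, 6.91% and 1.55%, so 0 of 4 does not set the isoforms apart.

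ATP synthase, complex V, had all 17 members measured, with a median of 0.17 and a range from -0.30 to 0.68, and none reached 2-fold. Above 0 were 14 of 17, or 11 with no scaling and 16 with spike-in scaling. The catalytic head, which makes ATP, had a median of 0.10 over 5 subunits. Atp5a1, the alpha subunit, differed by 0.29 ± 0.14, and Atp5b, the catalytic beta subunit, by 0.16 ± 0.12. Atp5d and Atp5c1, of the central stalk, differed by -0.21 ± 0.20 and -0.13 ± 0.20.

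The widest spread within complex V was among Atp5g1, Atp5g2 and Atp5g3, which encode the same mature subunit of the membrane rotor, the c-ring, behind different import sequences. Atp5g1 was at 4.45 with vehicle and 5.13 with prednisolone, a difference of 0.68 ± 0.14, with probes at 0.59 and 0.78. Atp5g3 was at 6.65 and 6.98, a difference of 0.33 ± 0.20. Atp5g2 was at 7.62 and 7.32, a difference of -0.30 ± 0.20. Its probe was printed 10 times, and the spots ran from -0.36 to -0.24 with an SD of 0.04, a spread that covers the array surface only. Atp5g1 and Atp5g2 lay on opposite sides of 0 under each scaling alternative; the value for Atp5g2 was -0.07 with spike-in scaling.

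The 4 peripheral stalk subunits, which hold the head still, differed by 0.03 to 0.21, and the 5 small membrane subunits by 0.02 to 0.35, with Atp5l highest at 0.35 ± 0.20. All 9 were above 0, and 3 of the 9 were below 0 with no scaling. Genes for subunits that are made inside the mitochondrion were not analysed here.

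Promoter sequence was compared over the common members because NRF-1 is best known as a regulator of such genes. Of the 74 common members, 62 matched an entry, with 67 promoters. GCATGCGC, on either strand within the 250 bases before the start, was found in 8 of 67 (11.9%) against 2.26% of all 32851; CCGGAAG, an ETS motif bound by GABP, in 11 (16.4%) against 6.91%; and TGACGTCA in 5 (7.46%) against 1.55%. ACGTG, the core of hypoxia response elements, was in 14 (20.9%) against 16.6%, and the E-box in 40 (59.7%). The palindromic glucocorticoid response element was found in 0 of the 67 and in 10 of the 32851 (0.03%). With so low a share over all promoters, 0 of 67 does not set the members apart, and only exact matches were sought. The 8 stretches with the NRF-1 motif, in capitals with any longer palindrome it belongs to, are given 5′ to 3′ on the gene's strand.
Atp5g2 (chr15:102671070-102671099, minus strand): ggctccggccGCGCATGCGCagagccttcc
Atp5k (chr5:108434430-108434459, minus strand): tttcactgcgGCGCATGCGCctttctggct
Atp5l (chr9:44920965-44920992, minus strand): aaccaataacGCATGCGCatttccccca
Cox6a1 (chr5:115349101-115349130, minus strand): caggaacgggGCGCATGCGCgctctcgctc
Cycs (chr6:50566612-50566639, minus strand): atgctagctcGCATGCGCgcgcacaaac
Ndufa11 (chr17:56717692-56717721, plus strand): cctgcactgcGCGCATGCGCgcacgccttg
Ndufa6 (chr15:82354357-82354384, minus strand): ccgcggtagaGCATGCGCattgcagagc
Ndufa8 (chr2:36049339-36049356, minus strand): cgctggagacGCATGCGC
Differences of members with and without the motif overlapped. The 8 members with a match had a median of 0.15 and ran from -0.43 (Ndufa6) to 1.05 (Cycs), and the 54 members with an entry and no match had a median of 0.12 and ran from -0.53 to 0.92. A match of letters does not show binding.

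Around the subunits, a few single genes that build, feed or regulate the chain differed by at least 2-fold. The lists below were chosen from general knowledge. Among all 12899 genes measured on both arrays, 5.84% passed 2-fold in the higher direction and 6.73% in the lower. A single call in a list is therefore not read as a trait of that list. Of the 15 assembly factors of complex I, 1 passed 2-fold, in the higher direction, and the median was 0.17. That gene was Ndufaf4, at -0.85 with vehicle and 1.35 with prednisolone, a difference of 2.21 ± 0.20 (4.62-fold). It stands beside complex I subunits of which 0 of 37 reached 2-fold.

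The assembly factors of the later complexes that were measured on both arrays were within 2-fold. Of 24 such genes for complex IV, 0 were called, with a median of 0.11, and Pet117, well above background with prednisolone only, was at least 1.71-fold higher; Cmc1, a copper-binding assembly factor, had the lowest at -0.91 ± 0.20, and Lrpprc, which stabilises mitochondrial messenger RNA, the highest at 0.89 ± 0.13. Of 5 measured for complex III, 0 were called and Lyrm7 had no value, with Uqcc1 at 0.59 ± 0.11. Of 4 for complex V, 0 were called, with Atpaf2 at 0.28 ± 0.14. With spike-in scaling, Lrpprc and Pet117 (complex IV) and Ecsit and Ndufaf2 (complex I) were also at least 2-fold higher.

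Genes that deliver electrons to coenzyme Q from outside complexes I and II had the highest median of the lists, 0.65 over 7 measured of 8; 2 of the 7 passed 2-fold, both in the higher direction, and with spike-in scaling Dhodh, which feeds electrons from pyrimidine synthesis, made 3. Prodh, the proline dehydrogenase, was at -3.74 with vehicle and -1.10 with prednisolone, a difference of 2.64 ± 0.25. Gpd2, the mitochondrial glycerol 3-phosphate dehydrogenase of the glycerol phosphate shuttle, was at -1.94 and -0.81, a difference of 1.14 ± 0.18. Both were dim, and with normexp their differences were 1.42 and 0.72, the latter inside 2-fold. With the stricter filter on dim probes, Prodh had no value, the list median was 0.51 over 6 genes, and 1 gene, Gpd2, passed 2-fold. In the supply of coenzyme Q and haem c, 1 of 11 genes was at least 2-fold higher: Pdss1, which makes the coenzyme Q tail, at -0.21 and 1.29, a difference of 1.51 ± 0.20. This call rests on a spot with a background flag, and with such spots left out Pdss1 had no value and 0 of 10 genes were called.

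Among 17 measured regulators of mitochondrial transcription and biogenesis, 1 passed 2-fold, in the higher direction, and the median was 0.18; with spike-in scaling 4 passed, Polg, Ppargc1b, Pprc1 and Tfb2m. Pprc1, a coactivator of the PGC-1 family, was at 1.60 with vehicle and 2.85 with prednisolone, a difference of 1.26 ± 0.20. Its relative Ppargc1b differed by 0.79 ± 0.15, and Ppargc1a was well above background on neither array. Nrf1, which encodes NRF-1, had probes on either side of 0, from -0.30 to 0.66, with a mean of 0.07 ± 0.12. Of the GABP subunit genes, Gabpa differed by -0.22 ± 0.12 and Gabpb1, the lowest of the list, by -0.50 ± 0.10, with probes from -0.93 to 0.03. Tfam, which packages mitochondrial DNA and takes part in its transcription, differed by 0.18 ± 0.14.

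Of the 7 genes around cytochrome c release, 1 was at least 2-fold higher, Diablo, whose product leaves the mitochondrion with cytochrome c and blocks inhibitors of apoptosis. It was at -0.45 with vehicle and 0.76 with prednisolone, a difference of 1.21 ± 0.15 (0.98 with normexp). Apaf1, which cytochrome c activates, differed by -0.63 ± 0.17, and Bax, which permeabilises the outer membrane, by 0.55 ± 0.14.

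**Figure D5:**
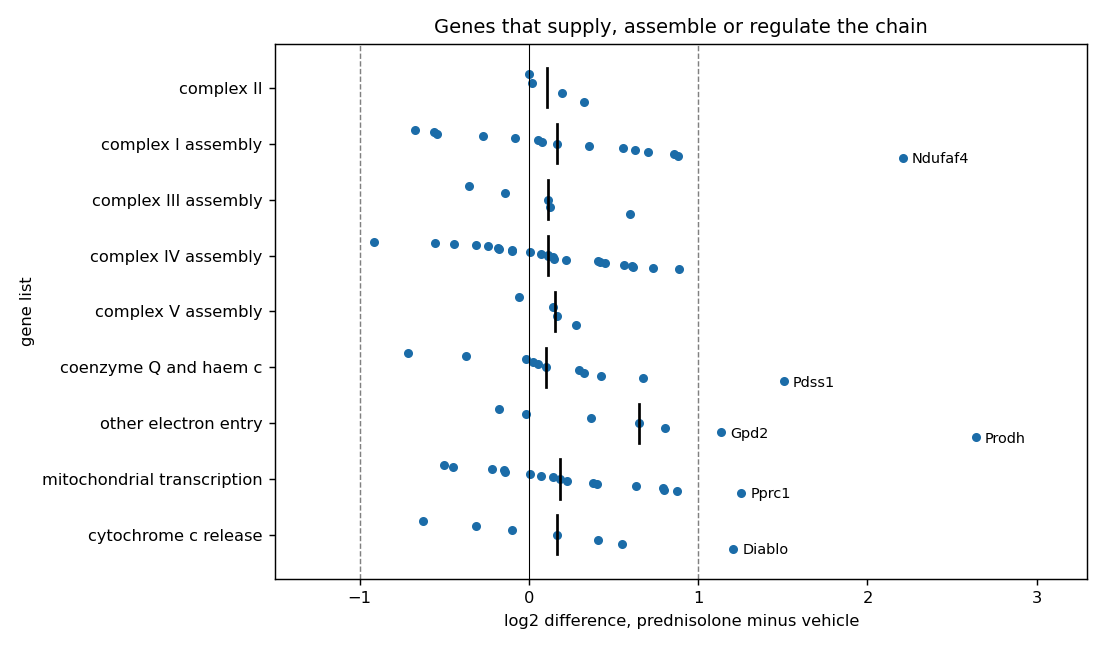
Log2 difference (prednisolone minus vehicle, horizontal axis) of the genes measured on both arrays in each list around the chain; black bars are list medians and dashed lines mark 2-fold. Ndufaf4, Pdss1, Gpd2, Prodh, Pprc1 and Diablo lie to the right of the upper line and no gene lies to the left of the lower one.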

How the data were processed

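1-colour Agilent arrays (Cy3, 100 ng of total RNA each; 1 vehicle, 1 prednisolone) were read from the deposited scanner files. Per the file headers, the authors' intensity values came from Agilent Feature Extraction 12.0.3.1, which had background-subtracted the processed signal; the headers name build mm9. Per array there were 59305 spots other than controls, from 56605 probes, and 0 were saturated; 1 array per group limits the precision.

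The log2 processed signal was taken minus each array's 75th percentile (400.4 and 386.9 intensity units). Transcript accessions were matched to a RefSeq gene table (GRCm38.p6), which named 33766 probes and left 22837 unnamed. Control spots and spots with a feature outlier flag were left out. Spots flagged only for the ring of background around them were kept, since 15 of 82 members would be lost otherwise. This choice was made after the data were seen. Counts and complex medians with such spots left out are given in the last section. Probes well above background on both arrays were averaged per gene; with 1 such array, the bound uses the lowest signal well above background on the other. No difference was tested.

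Alternatives were 5 scalings, normexp (limma 3.58.1 in R 4.3.3, offset 50, on the spot's median signal), filters, probe rules and the authors' deposited table of intensity, which is the processed signal times 1 constant per array (0.792 and 0.858; column medians 16.2 and 16.4, linear, not centred). The procedure was tested on simulated data, which held no bounds and no planted differences near 2-fold, so calls of those kinds were not checked. Python 3.11.15, numpy 2.4.6 and pandas 2.3.3 were used. Members and lists were chosen with earlier results of these data known. Named are all isoform families, every member apart by 2-fold, the 3 highest and lowest of each complex, and of each list the genes apart by 2-fold or else the farthest from 0, complex II and 6 regulators; Ndufs1, Uqcrh, Atp5a1, Atp5b, Ndufb8, Cox6c, Lrpprc, Pet117, Gabpb1, Apaf1, Bax, some cell markers and the genes called only with spike-in scaling were added after their values were seen. Some genes are not reported here; they remain in the counts and medians.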

Additional observations from a re-analysis of the deposited data

How the results depend on the processing

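With spike-in scaling, which moved the median of all genes to 0.24, 2 members were at least 2-fold higher (Cycs and Ndufab1), the median of members was 0.33, and the medians of complexes I, III, IV and V were 0.34, 0.41, 0.032 and 0.41; complex IV thereby changed sign, from -0.21. All scalings but quantile normalization shift every gene by 1 constant, so they leave the members' median 0.09 above that of all genes by construction; it was 0.09 with quantile normalization and 0.06 with the brightest probe. Among all genes past 2-fold, 46.5% were higher in the main setting and 68.0% with spike-in scaling. No member was at least 2-fold higher (0) with the brightest probe per gene or with the 75th percentile of probes well above background. With the stricter filter on dim probes, 1 member was at least 2-fold lower and 3 isoforms lay below their common partner. The main count of 5 includes the 2 bounds, which could only be lower. With background-flagged spots also left out, an alternative chosen after seeing the data, 62 members were measured, 1 was higher and 3 were lower, and 2 isoforms could be set beside a common partner, both below it. The medians of complexes I, III, IV and V were then 0.14, 0.04, -0.21 and 0.13. Among the members without a value there were Ndufs1, Ndufv3, Cyc1, Uqcr11, Cox4i1, Cox6b1, Cox7a2l, Cox8a and Atp5g3. With normexp 2 members were at least 2-fold lower. Of the members past 2-fold, Cycs and Cox7a1 did not change sign. The bounds of Cox6a2 and Cox8c could only be lower, so their sign says nothing about stability. Cox4i2 and Cox8a went from -0.21 to 0.03 with spike-in scaling, and the median of the common complex IV subunits went from 0.03 to -0.02 with no scaling. No paired analysis was possible because each group held 1 array, and for the same reason no replicate could be left out. Dim probes limit the bounds of Cox6a2 and Cox8c, since the lowest signals well above background were 12.8 and 11.7 intensity units.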
